A study of Mus musculus with 8 samples.

Results

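Astrocyte genes were followed in ribosome-bound RNA of hypocretin neurons and in the RNA left unbound. They are 34 genes chosen by name, each found as the probe sets whose single platform gene symbol is that name: 79 of 45037 probe sets other than controls, and 34 of 18193 genes with such a probe set. Translating ribosome affinity purification tags the ribosomes of a chosen cell type with a transgene and pulls them down with their RNA. All mice carried the bacterial artificial chromosome transgene of line Hcrt JD218, named for the hypocretin gene, on a mixed Fvb and c57/bl6j background, and were adults of 6 to 12 weeks and both sexes. The dissected diencephalon, thalamus and hypothalamus as one, was used, and 5 mice were pooled per preparation. From each of 4 preparations the immunoprecipitate and the unbound fraction, which stands for the whole tissue, were hybridised to 1 array each, so that 4 immunoprecipitates faced 4 unbound fractions. Pooling leaves no value for a single mouse, a precipitate from mice lacking the transgene was not analysed here, and the unbound fraction is what the precipitation left behind. In such bulk RNA, fewer cells of a type and less RNA per cell cannot be told apart.

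Astrocytes are glial cells that clear glutamate and potassium from the space around synapses, couple to each other through gap junctions, and wrap blood vessels with end feet rich in the water channel Aqp4. They turn glutamate into glutamine, which neurons take up again, and they supply lipid carriers such as Apoe. In the diencephalon their gene set overlaps with that of ependymal cells and tanycytes, the radial glia-like cells that line the third ventricle and express Vim.

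Hcrt, the gene of the labelled neurons, stood at 15.11, 15.40, 15.44 and 15.51 in immunoprecipitate replicates 1 to 4 and at 9.76, 10.09, 10.39 and 11.05 in the unbound fractions (log2 levels as deposited, here and throughout). Lhx9, a factor of these neurons, was 4.23-fold higher. A linear value of 50, which is 5.64 on the log2 scale, was reached by 33.6% to 34.8% of probe sets in the immunoprecipitates and by 40.5% to 40.9% in the unbound fractions. 10398 genes were tested, and the median gene was lower in the immunoprecipitate by 0.85 on the log2 scale. The median gene was at -0.03 when each array was centred on the median of all non-control probe sets, at 0.08 with the median of tested probe sets, at -0.04 with quantile normalization and at -2.81 with the poly-A spike-in controls. The gap between 3' and 5' probes of Gapdh, a sign of RNA quality, was 4.50 in immunoprecipitate replicate 4 against 2.12 to 2.31 in the other immunoprecipitates, and 3.36 in unbound replicate 4 against 1.94 to 2.08. The gap of Actb was 4.05, 3.14, 3.53 and 4.11 in immunoprecipitate replicates 1 to 4 and 3.01, 3.29, 3.45 and 3.8 in the unbound fractions. With 4 arrays in a group, their number sets how precise each value can be.

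Most astrocyte genes were lower in the immunoprecipitate, and most of those were still measured there. 28 of the 34 genes fell and 1 rose, where 44.2% of all tested genes fell and 4.74% rose. A gene was called when it changed 2-fold or more and its limma adjusted p was under 0.05. The list median was -2.05 on the log2 scale (-1.96 with genes under the linear value 50 in the immunoprecipitate at their bound), 1.21 below the median tested gene, and 30 of the 34 lay below that gene. Vim, an intermediate filament protein, was the gene that rose. Clu, Cst3, Entpd2, Slc7a10 and Bcan did not pass the test. With centring on the median of tested probe sets 20 fell and 2 rose, with quantile normalization 23 fell and 1 rose, and on the poly-A controls 33 fell and 0 rose. Centring and a shift by controls cannot move a gene against the median gene, and with quantile normalization 30 of the 34 were below it.

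**Figure D1:**
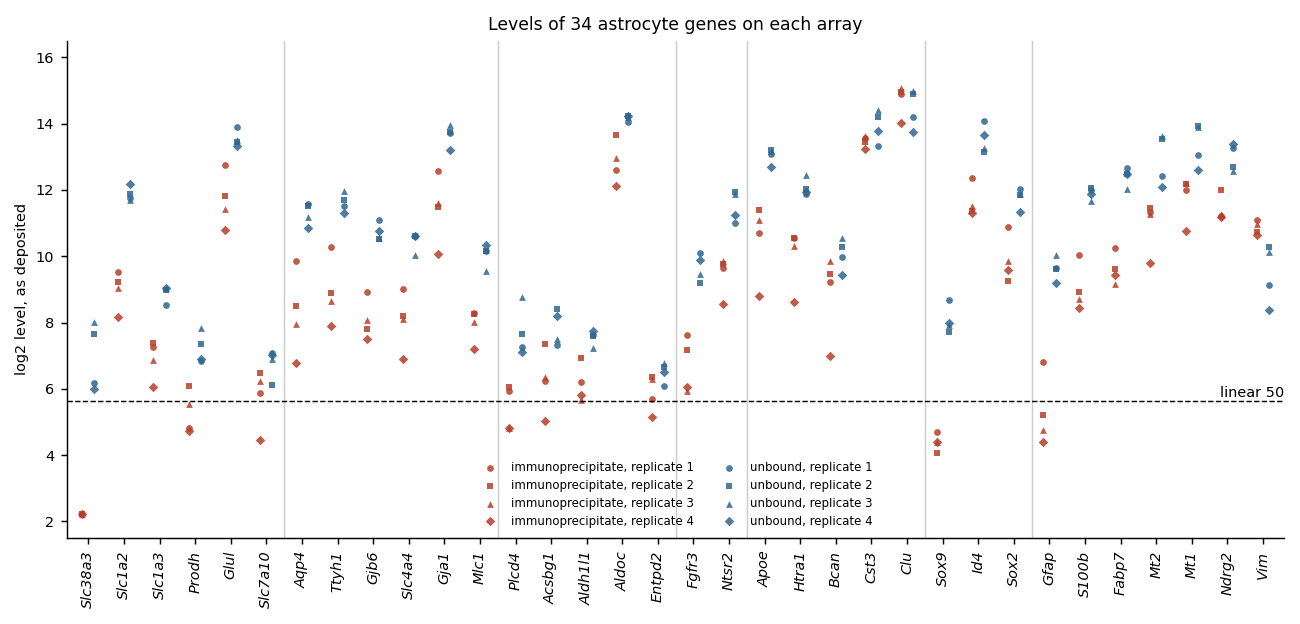
Log2 level as deposited (vertical axis) of 34 astrocyte genes, grouped by role, on the 4 immunoprecipitate arrays (red) and the 4 unbound arrays (blue), with a marker shape per replicate and a dashed line at the linear value 50. Sox9 and Slc38a3 lie under the line on all 4 immunoprecipitate arrays, and Vim alone has its immunoprecipitate points above all its unbound points.

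26 of the 34 genes stayed at or above the linear value 50 on all 4 immunoprecipitate arrays, against 83.1% of all tested genes. All 34 did so on the 4 unbound arrays, against 96.2%. Sox9 and Slc38a3 were under 50 on every immunoprecipitate array. Between these lay 6 genes at 50 on some arrays: Slc7a10, Acsbg1 and Entpd2 on 3, Plcd4 on 2, and Prodh and Gfap on 1. These 8 genes passed the filter on low values without 4 immunoprecipitate arrays, so their direction is in part given by the filter. Just inside the line was Aldh1l1, whose lowest immunoprecipitate array gave a linear 50.5, followed by Fgfr3 at 61.5 and Slc1a3 at 67.0. Just outside were Entpd2 at 35.3 and Acsbg1 at 32.5. 23 of the 34 genes reached a linear 100 on all 4 arrays and 30 reached 25.

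Of the genes of glutamate and amino acid handling 5 of 6 fell, with a list median of -2.0 (-1.69 with bounds). Slc1a2, the main glial glutamate transporter, stood at 9.52, 9.21, 9.05 and 8.16 in the immunoprecipitates and at 11.76, 11.87, 11.69 and 12.17 in the unbound fractions. The groups lay far apart, and the immunoprecipitate of replicate 4 was the lowest. The log2 fold change was -2.91 ± 0.29 (SE, n = 4 each), 7.52-fold lower, with a limma adjusted p of 2.6e-05. The second glial glutamate transporter, Slc1a3, was at 7.25, 7.39, 6.86 and 6.07 against 8.53, 8.97, 9.05 and 9.05 and fell 4.09-fold (limma adjusted p = 0.00036), just missing 2-fold after quantile normalization (-0.99). Glul, the glutamine synthetase that closes the glutamate cycle in astrocytes, was at 12.74, 11.83, 11.41 and 10.79 against 13.90, 13.45, 13.51 and 13.33. It fell 3.67-fold (log2 fold change -1.88 ± 0.35 SE; adjusted p = 0.0010 by limma) and missed 2-fold after centring on the median of tested probe sets (-0.95).

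The amino acid carriers differed among themselves. Slc38a3, which exports glutamine, stood at 2.23 on each immunoprecipitate array, near the lowest value on these arrays of 2.21. In the unbound fractions it stood at 6.17, 7.67, 8.02 and 6.00, so that its fall is at least 2.53-fold and could be larger. Slc7a10, a carrier of small neutral amino acids including D-serine, was at 5.88, 6.48, 6.25 and 4.46 against 7.07, 6.12, 6.91 and 7.01. Its groups overlapped, since in replicate 2 the immunoprecipitate was the higher of the pair, and the log2 fold change of -1.03 ± 0.44 (SE) did not pass (limma adjusted p = 0.061). After quantile normalization it gave 0.27, whereas it passed without immunoprecipitate replicate 2 (-1.21, limma adjusted p = 0.048), without unbound replicate 2 (-1.27, 0.041), without both (-1.45, 0.034) and with the poly-A controls (-3.0). Prodh, the proline dehydrogenase, was at 4.81, 6.09, 5.54 and 4.74 against 6.85, 7.36, 7.85 and 6.90 and was at least 2.85-fold lower, with a log2 fold change of -0.70 (limma adjusted p = 0.13) after quantile normalization.

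All 6 genes of channels, junctions and ion transport fell, with a list median of -2.55, and each kept its fall under all 24 alternatives. Aqp4, the water channel of end feet, stood at 9.85, 8.51, 7.95 and 6.77 in the immunoprecipitates and at 11.59, 11.52, 11.18 and 10.86 in the unbound fractions. It spanned 3.08 log2 units over the immunoprecipitates and 0.73 over the unbound fractions, and the groups did not meet. Its log2 fold change was -3.04 ± 0.54 (SE; adjusted p = 0.00075 by limma), 8.21-fold lower.

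Both connexins of astrocytic gap junctions were lower. Gja1, connexin 43, stood at 12.56, 11.50, 11.62 and 10.07 against 13.72, 13.75, 13.97 and 13.19, which is 4.73-fold lower. Gjb6, connexin 30, stood at 8.93, 7.82, 8.08 and 7.51 against 11.09, 10.52, 10.56 and 10.75, which is 6.35-fold lower. For both, immunoprecipitate replicate 1 was the highest and replicate 4 the lowest. The bicarbonate cotransporter Slc4a4 (5.40-fold), the membrane protein Mlc1 (4.36-fold), whose loss causes a leukodystrophy in humans, and the tweety family protein Ttyh1 (6.58-fold) were lower as well.

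Metabolic enzymes fell less, with 4 of 5 called and a median of -1.41. Aldh1l1, the folate enzyme used as a general astrocyte marker, stood at 6.22, 6.93, 5.66 and 5.82 against 7.63, 7.58, 7.23 and 7.74. The groups did not overlap and it was 2.65-fold lower, but the log2 fold change of -1.41 ± 0.31 (SE; adjusted p = 0.0027 by limma) was -0.48 (limma adjusted p = 0.20) after centring on the median of tested probe sets and -0.23 (limma adjusted p = 0.53) after quantile normalization. Aldoc, the brain form of aldolase, stood at 12.61, 13.65, 12.97 and 12.13 against 14.04, 14.22, 14.19 and 14.24. It fell 2.56-fold, with the widest difference in replicate 4 (-2.13) and the narrowest in replicate 2 (-0.59), and did not pass after either median centring.

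The remaining enzymes lay near the linear 50. Acsbg1, a fatty acid activating enzyme, was at least 2.78-fold lower, and its call was lost without replicate 4 of both fractions (-1.02, limma adjusted p = 0.075), after both median centrings (-0.82 and -0.70) and after quantile normalization (-0.47). The phospholipase Plcd4 was at least 3.73-fold lower, a call lost after quantile normalization (-1.06, limma adjusted p = 0.061). Entpd2, an enzyme that splits extracellular ATP, stood at 5.70, 6.37, 6.31 and 5.14 against 6.08, 6.65, 6.78 and 6.52. It was lower in 4 of 4 pairs, with log2 differences from -0.31 to -1.41, yet its groups overlapped and the log2 fold change of -0.65 ± 0.32 (SE) did not pass (limma adjusted p = 0.098). It gave 0.27 after centring on the median of tested probe sets and 0.65 after quantile normalization.

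The receptors Fgfr3 and Ntsr2 both fell. Fgfr3, a fibroblast growth factor receptor of astrocytes, stood at 7.62, 7.16, 5.94 and 6.06 against 10.11, 9.18, 9.46 and 9.88, which is 7.91-fold lower. Ntsr2, a neurotensin receptor found on astrocytes, stood at 9.64, 9.77, 9.87 and 8.57 against 11.01, 11.93, 11.88 and 11.25, which is 4.22-fold lower (limma adjusted p = 0.00040). Its first 3 immunoprecipitates lay close together and replicate 4 stood below them.

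Of the secreted and matrix proteins 2 of 5 fell and 3 did not pass, with a median of -1.20, a share near the 44.2% of all tested genes. Apoe, the main lipid carrier of the brain, stood at 10.70, 11.39, 11.10 and 8.79 in the immunoprecipitates and at 13.09, 13.19, 13.17 and 12.69 in the unbound fractions. It fell 5.92-fold (log2 fold change -2.56 ± 0.48 SE; adjusted p = 0.0010 by limma). The secreted protease Htra1, at 10.55, 10.54, 10.32 and 8.62 against 11.89, 12.04, 12.46 and 11.95, fell 4.28-fold. In both genes immunoprecipitate replicate 4 lay far under the other 3.

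Clu and Cst3, secreted proteins whose RNA is abundant in astrocytes and found in other brain cells too, did not pass the test. Clu, the extracellular chaperone clusterin, stood at 14.88, 14.96, 15.06 and 14.03 against 14.21, 14.89, 14.98 and 13.76. The immunoprecipitate was the higher of the pair in each preparation, by 0.65, 0.05, 0.06 and 0.25, and both fractions were lowest in replicate 4. The log2 fold change was 0.25 ± 0.30 (SE; adjusted p = 0.49 by limma), 1.18 (limma adjusted p = 0.0086) after centring on the median of tested probe sets and -1.71 (limma adjusted p = 0.00026) with the poly-A controls. Its 4 probe sets gave 0.25, 0.18, 0.08 and 0.39.

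Cst3, the protease inhibitor cystatin C, stood at 13.57, 13.44, 13.64 and 13.23 against 13.32, 14.21, 14.42 and 13.78. Its immunoprecipitates spanned 0.40, the groups overlapped through unbound replicate 1, and the log2 fold change was -0.48 ± 0.23 (SE; adjusted p = 0.085 by limma), against 0.44 after centring on the median of tested probe sets. Bcan, the proteoglycan brevican that astrocytes and oligodendrocyte precursors make, stood at 9.21, 9.46, 9.85 and 6.99 against 9.99, 10.29, 10.54 and 9.42. Immunoprecipitate replicate 4 stood far below the others. Its log2 fold change of -1.20 ± 0.56 (SE) did not pass (limma adjusted p = 0.084), but it passed with the replicate block (limma adjusted p = 0.0072), and its second probe set fell by 1.41 in log2 units (adjusted p = 0.0074 by limma). The probe set that stands for Bcan is of a design that can match several transcripts, and the second is not.

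All 3 transcriptional regulators fell, to different depths. Sox9, a factor that drives astrocyte fate, stood at 4.69, 4.06, 4.40 and 4.40 against 8.69, 7.73, 7.92 and 8.0. No immunoprecipitate array reached 50, so the fall is at least 5.51-fold, and its direction is in part given by the filter. The limma adjusted p of 4.8e-06 is that of the fit on values not raised to 50. Sox2, which neural stem cells, astrocytes and some neurons share, stood at 10.89, 9.26, 9.87 and 9.60 against 12.04, 11.85, 11.89 and 11.33 and stayed far above 50 while falling 3.72-fold, though it missed 2-fold after centring on the median of tested probe sets (-0.97). Id4, an inhibitor of basic helix-loop-helix factors, stood at 12.36, 11.36, 11.51 and 11.30 against 14.09, 13.15, 13.27 and 13.65 and fell 3.81-fold.

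The intermediate filament genes went opposite ways. Gfap, the classical astrocyte filament, stood at 6.82, 5.22, 4.77 and 4.41 in the immunoprecipitates and at 9.65, 9.62, 10.03 and 9.19 in the unbound fractions. Replicate 1 alone reached 50 in the immunoprecipitate, and the fall was at least 13.1-fold, with a direction in part given by the filter. The limma adjusted p of 4.8e-05 is that of the fit on values not raised to 50. Vim stood at 11.10, 10.74, 10.96 and 10.63 in the immunoprecipitates and at 9.13, 10.29, 10.13 and 8.38 in the unbound fractions. It rose 2.55-fold (log2 fold change 1.35 ± 0.39 SE; adjusted p = 0.012 by limma), higher in 4 of 4 pairs by 1.95, 0.43, 0.81 and 2.23, and was at -0.61 with the poly-A controls (adjusted p = 0.15 by limma). It was the single gene of the list whose immunoprecipitates all exceeded its unbound fractions, as 6.53% of tested genes did.

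Most of the spread of Vim lay in the unbound fraction. Its immunoprecipitates had an SD of 0.21 and its unbound fractions one of 0.90 (n = 4 each). Without unbound replicate 4 it gave 0.97 (limma adjusted p = 0.020) and missed 2-fold, and without replicate 1 of both fractions it gave 1.21 (limma adjusted p = 0.072). Its other probe sets rose by 1.69 and 1.51 (limma adjusted p = 0.00090 and 0.0015).

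Lists of markers of other cells that carry Vim went different ways. Of 9 tanycyte genes 4 were tested, of which Dio2 and Crym fell, Lhx2 rose 2.79-fold (limma adjusted p = 0.0048) and Gpr50 did not pass (-0.26, limma adjusted p = 0.43). Of all tested genes 44.2% fell and 4.74% rose, so 2 of 4 lower is near that share. Lhx2 is also known as a regulator outside tanycytes. Rax, Nes, Col23a1 and Scn7a were under 50 on the unbound arrays too, so their low level in the immunoprecipitate tells nothing of these cells, while Adm reached 50 on 3 unbound arrays and on 0 immunoprecipitates. The summed linear level of the 9 genes ran from 901.8 to 1896 in the immunoprecipitates and from 1345 to 3193 in the unbound fractions, and without Lhx2 from 260.1 to 481.9 and from 1113 to 2560.

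Of 12 endothelial and mural genes 6 were tested and 6 fell, where 44.2% of all tested genes fell. Here, as in the tanycyte and ependymal lists, tested genes under 50 on some immunoprecipitate arrays have a direction in part given by the filter. Cldn5 and Slco1a4 were under 50 on all immunoprecipitate arrays and above it on all unbound arrays, whereas Pecam1, Flt1, Tek, Cdh5 and Esam were under 50 in both fractions and carry no such comparison. The summed level of the 12 ran from 276.5 to 1048 in the immunoprecipitates and from 1460 to 2327 in the unbound fractions. Of 10 ependymal and choroid plexus genes 6 were tested, of which 4 fell and 0 rose, where 44.2% and 4.74% of all tested genes did. Their mean level was 6.96, 7.80, 8.09 and 5.45 in unbound replicates 1 to 4 and 6.20, 5.94, 6.21 and 4.83 in the immunoprecipitates. Tmem212, Kl and Enkur reached 50 on some or all unbound arrays and on 0 immunoprecipitates, and Foxj1 was under 50 in both. Their summed level ran from 839.2 to 62530 in the unbound fractions and from 1426 to 45410 in the immunoprecipitates, and outside unbound replicate 4 it was mostly that of Ttr, the transthyretin of choroid plexus. Ttr stood at 15.46, 15.84, 15.86 and 5.40 in the unbound fractions, and in the immunoprecipitates at 10.20 in replicate 4 and at up to 15.46 in the others. Without it the sum ran from 796.0 to 2916 and from 250.7 to 627.1. Vim, Clu, Mt1 and Mt2 were, like that list, higher in unbound replicates 2 and 3 than in 1 and 4. The same held for Cst3, Bcan and members that fell, among them Slc38a3, Ntsr2, Prodh and Htra1. The pattern is thus not particular to Vim and Clu. The part of the cells of these lists in the values was not tested.

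The other intracellular proteins of the list fell. S100b, a calcium-binding protein, stood at 10.05, 8.93, 8.71 and 8.45 against 12.00, 12.05, 11.68 and 11.88, which is 7.41-fold lower. Fabp7, a fatty acid-binding protein of radial glia and astrocytes, stood at 10.25, 9.63, 9.16 and 9.43 against 12.66, 12.49, 12.02 and 12.48, which is 7.04-fold lower (limma adjusted p = 1.6e-05). Ndrg2, a protein enriched in astrocytes, stood at 11.20, 11.99, 11.28 and 11.19 against 13.26, 12.69, 12.57 and 13.39, which is 3.00-fold lower, and missed 2-fold after both median centrings (-0.77 and -0.66). In each of the 3 genes the fractions lay apart on all arrays.

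The metallothioneins Mt1 and Mt2, small cysteine-rich proteins that bind zinc and copper, shared one pattern over the arrays. Mt1 stood at 12.01, 12.19, 12.20 and 10.75 in the immunoprecipitates and at 13.05, 13.94, 13.91 and 12.60 in the unbound fractions. Mt2 stood at 11.33, 11.45, 11.27 and 9.80 and at 12.42, 13.54, 13.63 and 12.08. Both were lowest in replicate 4 of each fraction. Mt1 fell 3.06-fold (limma adjusted p = 0.0047) and Mt2 3.94-fold (limma adjusted p = 0.0031), and both lost the call after centring on the median of tested probe sets (limma adjusted p = 0.16 and 0.066). The Mt1 probe set is of a design that can match several transcripts, so signal of related metallothioneins in it cannot be told apart.

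Mt3, a further metallothionein known from both astrocytes and neurons, is not among the 34 genes but lies beside Mt2 on chromosome 8. It stood at 11.87, 12.81, 12.69 and 12.60 in the immunoprecipitates and at 10.37, 11.47, 12.37 and 10.66 in the unbound fractions. It rose 2.38-fold (log2 fold change 1.25 ± 0.41 SE; adjusted p = 0.021 by limma), although its groups overlapped through unbound replicate 3. The poly-A controls shift every log2 fold change by -1.97 against the main setting, which is larger in size than this rise. The 250 bases before the start of Mt2 and of Mt3 are shown because these neighbours went opposite ways in the main setting. A further reason is that Mt2 is known as a target of the metal-responsive factor MTF-1. Sequences are from RefSeq (GRCm38.p6, plus strand, Mt2 at chr8:94172368-94172617 and Mt3 at chr8:94152357-94152606). Capitals mark matches to the core of the metal response element, searched as TGCACNC or TGCGCNC on both strands with no overlap between matches.
Mt2: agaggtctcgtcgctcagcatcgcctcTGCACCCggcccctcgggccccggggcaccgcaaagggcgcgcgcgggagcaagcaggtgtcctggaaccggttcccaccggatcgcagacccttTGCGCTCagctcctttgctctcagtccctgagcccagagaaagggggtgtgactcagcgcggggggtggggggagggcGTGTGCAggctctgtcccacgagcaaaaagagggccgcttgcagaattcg
Mt3: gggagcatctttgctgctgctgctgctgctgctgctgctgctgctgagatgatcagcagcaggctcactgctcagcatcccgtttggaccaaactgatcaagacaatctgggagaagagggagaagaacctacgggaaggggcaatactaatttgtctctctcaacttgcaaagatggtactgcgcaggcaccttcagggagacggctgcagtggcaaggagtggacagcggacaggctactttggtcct
The Mt2 window held 3 matches, on both strands together, and 1.26% of 32851 promoter windows of that length held as many or more. The Mt3 window held 0, the Mt1 window 1, and 21.4% of all windows held at least 1. These letters were the second search, narrowed after the values and a first search were seen. The first, TGCNCNC on both strands, gave 5 matches in the Mt2 window (0.344% of windows held as many), 1 in that of Mt1 and 1 in that of Mt3, and 44.4% of windows held at least 1. Under the first search Mt1, which fell, and Mt3, which rose, thus had the same number, and a split between genes that fell and rose appears only with the narrowed letters. The Mt1 sequence is not shown because 206 of its 250 bases lie inside the annotated gene, so that its window is not a comparable upstream stretch. A match is a description of these letters and not a site shown to be bound.

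**Figure D2:**
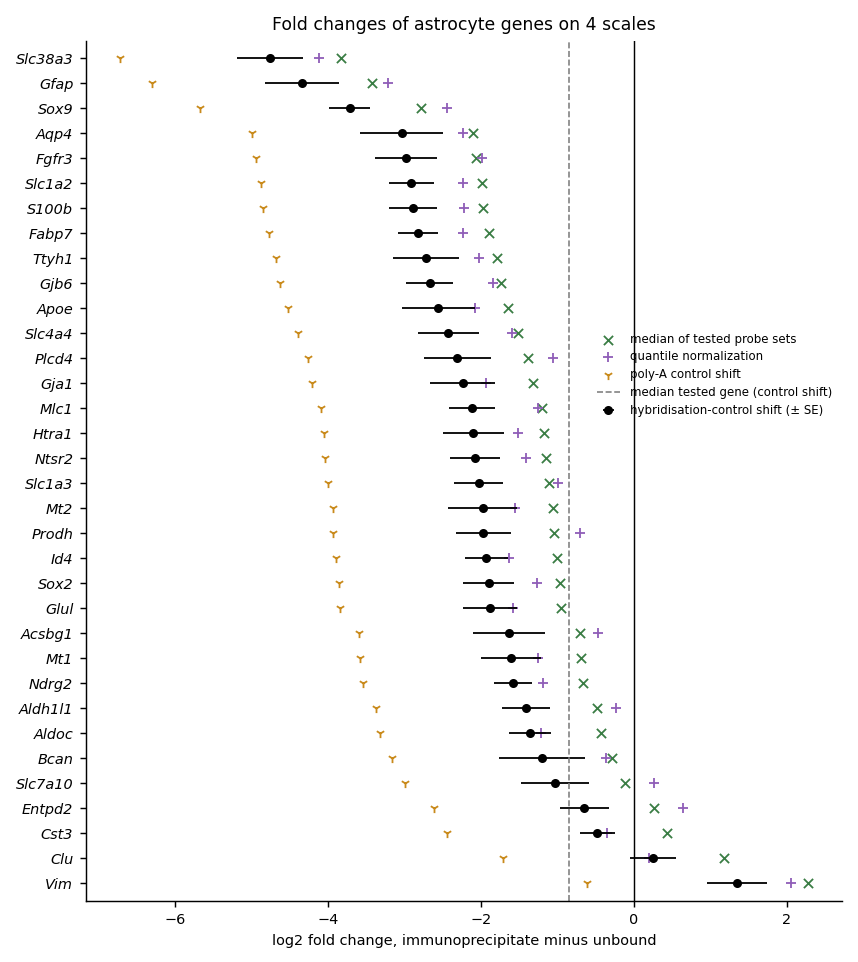
Log2 fold change, immunoprecipitate minus unbound (horizontal axis), of each astrocyte gene in order, with SE bars for the shift on the hybridisation controls and further symbols for 3 other scales. The dashed line is the median tested gene at -0.85, and Vim, Clu, Cst3 and Entpd2 are the genes to its right.

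The spread by replicate was wider in the immunoprecipitate than in the unbound fraction, and the same arrays were the lowest and the highest for many genes. Over the 26 genes measured on all 4 immunoprecipitate arrays, replicate 4 was the lowest in 22 and the highest in 0, where it was lowest for 25.6% of 8645 tested genes measured there. Replicate 1 was the highest in 15 of the 26 and the lowest in 0, where it was highest for 29.4% of those genes. The median deviation of the 26 genes from their own mean was 0.45, 0.24, 0.07 and -0.78 in replicates 1 to 4, whereas that of all such genes was -0.05, 0.01, 0.02 and 0.04. 23 of the 26 spanned at least 1 log2 unit over the immunoprecipitates, as 36.1% of those genes did. The median SD over the 4 immunoprecipitates was 0.66 for the 34 genes and 0.37 for tested genes measured on all of them. Over the unbound fractions it was 0.34 for the 34 genes and 0.34 for tested genes measured there.

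**Figure D3:**
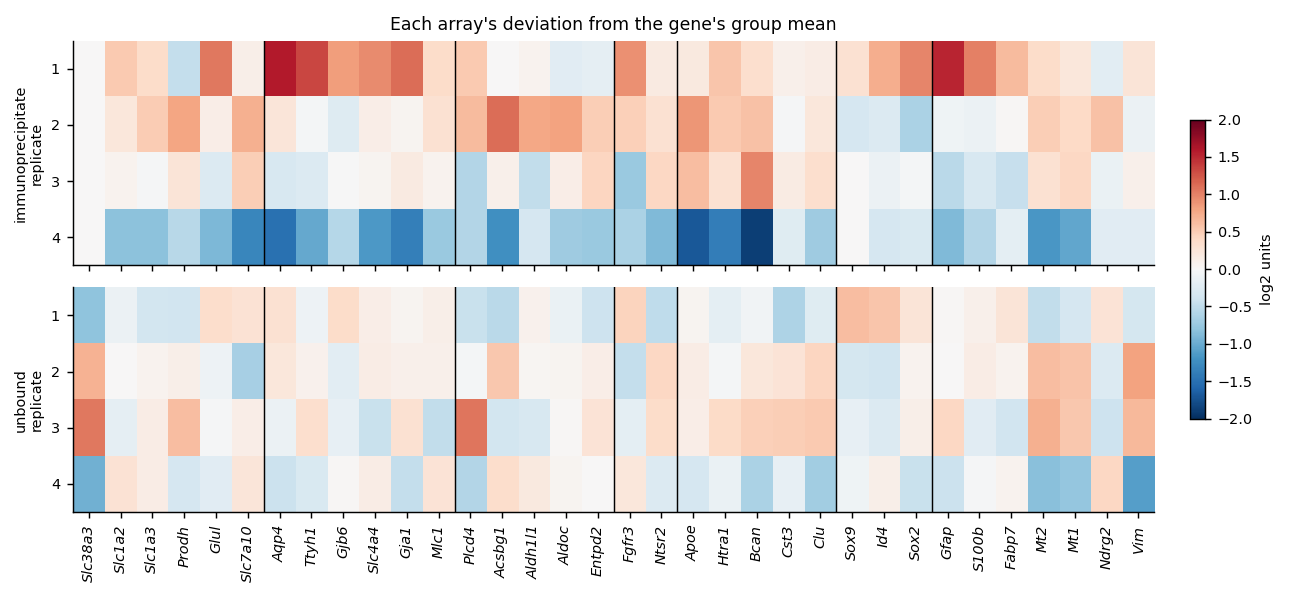
Deviation of each array from the gene's own group mean in log2 units (colour), for 34 astrocyte genes grouped by role, with the immunoprecipitate above and the unbound fraction below. The row of immunoprecipitate replicate 4 is blue for most genes and that of replicate 1 is red for many, from Aqp4 and Gfap to Glul, while the unbound rows are paler.

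Within a preparation the astrocyte genes were lower in the immunoprecipitate by different amounts. The median log2 difference of the 34 genes was -1.41, -1.82, -2.11 and -2.86 in pairs 1 to 4, while that of all tested genes was -0.85, -0.85, -0.79 and -0.88. 30 of the 34 were lower in 4 of 4 pairs, against 63.9% of tested genes. 27 of the 34 had all their immunoprecipitates under all their unbound fractions, as 50.6% of tested genes did. 25 of the 34 lay under their pair's median gene in all 4 pairs, against 36.0% of tested genes, and Vim and Clu lay under it in 0. Without replicate 4 of both fractions the list median was -1.78 and 27 genes fell. Without replicate 1 of both it was -2.22, 28 fell and 0 rose.

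The genes did not all follow the same array. Aqp4, Gfap, Ttyh1, Gja1, Glul and S100b were among those highest in immunoprecipitate replicate 1. Among those highest in replicate 2 were Aldoc, Acsbg1, Aldh1l1, Ndrg2, Apoe and Prodh, and Bcan, Clu, Ntsr2, Cst3 and Mt1 were highest in replicate 3. Sox2 was lowest in replicate 2, and Aldh1l1, Fgfr3 and Fabp7 in replicate 3.

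Other glial lists were also lowest in immunoprecipitate replicate 4, while the mean of the hypocretin genes was at its highest there. The mean level of the 34 astrocyte genes was 9.26, 9.07, 8.82 and 8.0 in immunoprecipitate replicates 1 to 4 and 10.76, 10.92, 10.96 and 10.62 in the unbound fractions. The SD of that mean over the immunoprecipitates was 0.56, and 0.22 without replicate 4. The mean level of 14 oligodendrocyte genes was 10.55, 10.34, 10.21 and 9.15 in the immunoprecipitates, and that of 11 microglial genes was 5.30, 5.30, 4.98 and 4.15. These microglial means lie under the linear value 50, and 7 of the 11 genes were under it on all immunoprecipitate arrays. In unbound replicates 1 to 4 the microglial mean was 7.03, 7.31, 7.33 and 6.65, again lowest in replicate 4, as was the astrocyte mean. The oligodendrocyte mean there was 12.02, 12.20, 12.52 and 12.21, lowest in replicate 1. The mean level of 9 hypocretin neuron genes, chosen with their rise in these data known, was 12.52, 13.01, 13.09 and 13.16. Replicate 4 was the highest in 5 of the 9, where it was highest for 33.6% of tested genes measured on all immunoprecipitates. Pan-neuronal genes averaged 11.87, 12.00, 11.94 and 11.47 and were lowest in replicate 4 as well. Replicate 4 also had the largest Gapdh 3' to 5' gap, given above, while the Actb gap was 4.11 there and 4.05 in immunoprecipitate replicate 1. The part of RNA quality in the spread was not tested. The summed linear level of the 34 astrocyte genes ran from 47290 to 91770 in the immunoprecipitates and from 143900 to 194000 in the unbound fractions.

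**Figure D4:**
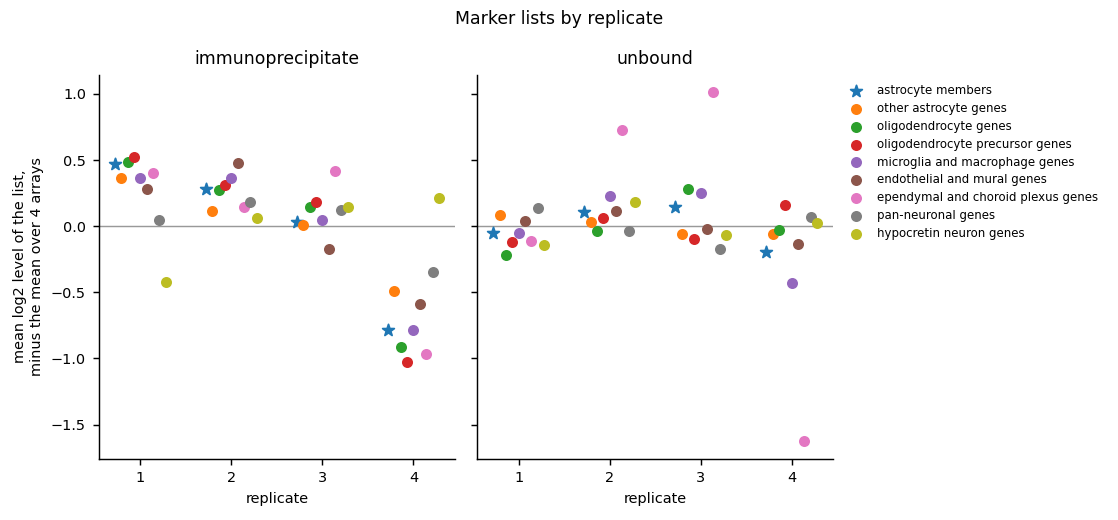
Mean log2 level of each marker list minus its mean over the 4 arrays of a fraction (vertical axis), by replicate, for the immunoprecipitate (left) and the unbound fraction (right). In immunoprecipitate replicate 4 the astrocyte list (star) and the other glial and vascular lists are at their lowest, while the hypocretin list is at its highest.

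Most genes with several probe sets had one call over them. Of 79 probe sets 59 were tested, 48 of them fell, 3 rose and 8 were not called, where 45.1% of all tested probe sets fell and 4.88% rose, and 18 lay under 50 on every array. 15 genes had more than 1 tested probe set and 14 of these had the same call throughout, the exception being Bcan. The sizes could differ. Aldoc was 2.56-fold lower on its brighter probe set and at least 5.34-fold lower on the other, which had 2 of 4 immunoprecipitate arrays at 50 (limma adjusted p = 0.0016 each). Slc1a2 was 7.52-fold lower and, on a second probe set with 0 of 4 immunoprecipitate arrays at 50, at least 7.23-fold lower. That probe set stood at 7.77, 9.80, 10.10 and 6.23 in the unbound fractions. Ttyh1 fell by 2.72 on the log2 scale on its brightest probe set and by 1.80 on the next. For Gja1, Htra1 and Vim, whose leading probe sets are of designs that can match other transcripts, a probe set without that mark gave -2.81, -2.18 and 1.69. Bcan and Clu lead with designs of that kind too. A probe set without that mark gave -1.41 for Bcan (limma adjusted p = 0.0074) and 0.39 for Clu (limma adjusted p = 0.22). For Gfap such a probe set lay under 50 in 4 of 4 immunoprecipitates and fell at least 3.12-fold.

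**Figure D5:**
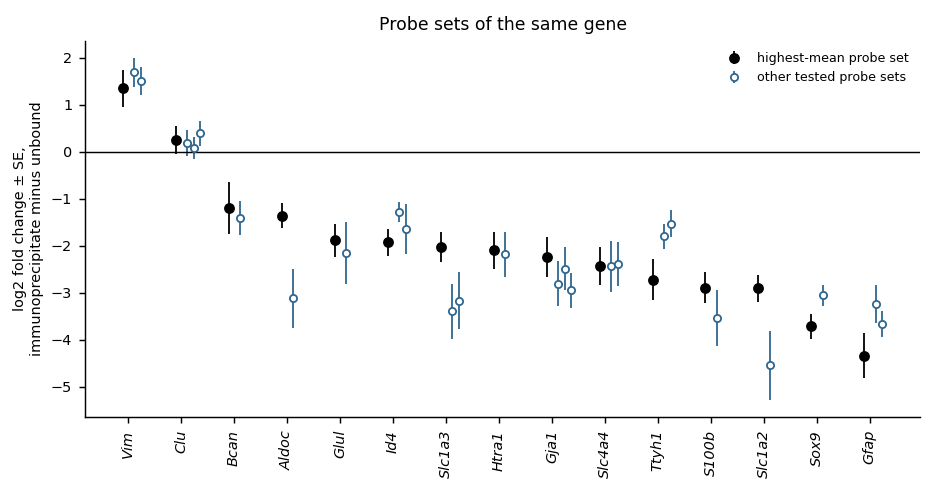
Log2 fold change with SE, immunoprecipitate minus unbound (vertical axis), of all tested probe sets of the 15 astrocyte genes with more than 1. Filled points are the probe set with the highest mean, which stands for the gene, and open points the others; the 3 of Vim and the 4 of Clu are the ones above 0.

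Gene length, which went with the change over all genes, was compared as well. Over tested genes split by genomic length in 5 groups of equal size, the median log2 fold change was -0.13 among the shortest and -1.54 among the longest. 13 of the 34 astrocyte genes lay in the shortest group and 2 in the longest. 32 of the 34 were below the median of their own length group, the median difference over all 34 was -1.46 on the log2 scale, and Clu and Vim were above it.

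A further list of astrocyte genes, drawn up by name with the earlier results known, gave a like picture. Of 59 listed genes 56 had a probe set and 47 were tested: 39 fell and 1, Mt3, rose, with a median of -2.32 (-1.87 with bounds), against 44.2% and 4.74% of all tested genes. 17 of the 56 were under 50 on all immunoprecipitate arrays and 32 reached 50 on all 4. Among the 39 that fell are genes that passed the filter without 4 immunoprecipitate arrays, and the filter in part gives their direction. The log2 differences farthest from 0 were those of Daam2 of Wnt signalling (at least 4.79-fold), Dio2, the deiodinase that activates thyroid hormone (at least 13.5-fold, with 1 of 4 immunoprecipitate arrays at 50), and the matrix link protein Hapln1 (at least 2.56-fold). They rest on immunoprecipitate values under 50, so their order by fold is not known. Nfia, a factor of glial fate named after its value was seen, was measured on all arrays and was 12.0-fold lower. Dio2 is counted in the tanycyte list too. The smallest changes were those of Fjx1 (-0.13 ± 0.35 SE), the nuclear receptor Rorb (-0.04 ± 0.29 SE) and Cspg5 (0.32 ± 0.34 SE), with limma adjusted p of 0.76, 0.91 and 0.43. These 3 genes are known in neurons too.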

How the data were processed

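The authors deposited 1 log2 value per probe set and array. The submitters' processing notes name GCRMA, a background correction and normalization with no version given, and the design text says that each group was normalized separately. RNA was amplified over 2 cycles from 20 ng, per the labels' protocols. Of 45101 probe sets 64 are controls, 34945 had 1 gene symbol in the platform annotation, 932 several and 9160 were not listed, and 0 symbols changed against RefSeq.

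As the design text recommends, the groups were brought level by 1 constant each, which equalized the means of 18 biotinylated hybridisation controls. These differed by 0.02 as deposited. 17865 probe sets at or above a linear 50 on at least 4 arrays entered lmFit and eBayes (with trend) of limma 3.58.1, run in R 4.3.3, with p-values adjusted by Benjamini-Hochberg over all of them, and called below 0.05 and at least 2-fold. A gene stands for its tested probe set with the highest mean. Folds written as at least N raise values under 50 to 50, while the p-values beside them come from the fit on values not raised. On simulated data with 17865 probe sets the fit called 78.0% of those lowered by 2 on the log2 scale and 6 of 17665 unchanged ones. The simulated noise was independent between probe sets and arrays, with no shift between the groups. In the real data 45.1% of tested probe sets fell, so these rates do not carry over to them.

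Replicate numbers join the fractions of 1 preparation, per the labels. Deviations of same-numbered arrays correlated at 0.46, 0.32, 0.28 and 0.58 across genes (the highest with another number was 0.26). Across the 34 members alone they correlated at 0.47, 0.05, 0.28 and 0.07. The main fit has no block. P-values treat each pooled preparation as a replicate. No arrays were identical. All 34 members are named, with the 3 largest and 3 smallest changes and any called rise in the further list. Nfia, Gldc, Lhx2, Gpr50, Crym and Ttr were named after their values were seen. Members and lists were chosen with earlier results of these data known. Alternatives were other scalings, filters, thresholds, the replicate block, the mean of probe sets and leaving out arrays; centring on tested probe sets was chosen after seeing the data. So were the comparisons by gene length and with the pair's median gene, the summaries of SD and range, the attention to replicate 4, and the promoters shown with their motif. Figures used matplotlib 3.10.9 in Python 3.11.15.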

Additional observations from a re-analysis of the deposited data

Results flagged for a closer look

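Within 4 arrays of a fraction, 6 of 66 sets of values held 1 array far from the other 3, where chance gives about 1 in 20. The sets share the same 8 arrays and are not independent, so the count cannot be judged by that rate. Htra1 in immunoprecipitate replicate 4 was at 8.62 against 10.32 to 10.55 in the others. Mt1 was at 10.75 there against 12.01 to 12.20, and Mt2 at 9.80 against 11.27 to 11.45. These 3 genes share the array that was lowest for 22 of the 26 astrocyte genes measured on all immunoprecipitates. Ndrg2 was high in immunoprecipitate replicate 2, at 11.99 against 11.19 to 11.28. Slc1a3 was low in unbound replicate 1, at 8.53 against 8.97 to 9.05, and Slc4a4 in unbound replicate 3, at 10.03 against 10.61 to 10.62.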

How the results depend on the processing

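Results were recomputed under 24 alternatives. Of the 28 astrocyte genes lower, 10 lost the call at 4-fold, 8 after centring on the median of tested probe sets, and 5 after either centring on all non-control probe sets or quantile normalization. After centring on the median of all non-control probe sets, 4228 probe sets fell and 3150 rose, the median of the 34 genes was -1.24, 2 of them rose (Vim and Clu), and Entpd2 gave 0.16 and Cst3 0.33. With the median of tested probe sets, chosen after seeing the data, 3789 fell and 3666 rose, the median was -1.13, 2 rose, and Entpd2 gave 0.27 and Cst3 0.44. Quantile normalization gave 3715 and 3091, a median of -1.46, and 0.27 for Slc7a10 and 0.65 for Entpd2. The poly-A controls gave 16823 and 125, a median of -4.02, 0 astrocyte genes higher, and -1.71 for Clu and -0.61 for Vim. Calls higher were 9.76% of all calls in the main setting and 42.7%, 49.2%, 45.4% and 0.738% in these 4. Higher calls numbered 1402 with no filter on low values and 1489 with no fold threshold. At 4-fold 3714 probe sets fell and 257 rose, with 18 astrocyte genes lower and 0 higher. The replicate block gave 29 astrocyte genes lower and 1 higher, adding Bcan (-1.20, limma adjusted p = 0.0072), and changed no other call among the 34. Leaving out single arrays or preparations gave 27 to 29 genes lower and 0 to 1 higher, and the SD of the mean level of the 34 genes over the immunoprecipitates ran from 0.22 (without replicate 4) to 0.68. The number at a linear 50 on all immunoprecipitate arrays was 26 to 29. The cause of these shifts was not tested. Genes under 50 in the immunoprecipitate have only bounds.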

Other observations

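Gldc, an astrocyte gene of the further list, was not tested because too few arrays reached a linear 50. It stood at 5.92, 5.49, 6.03 and 6.65 in the immunoprecipitates and at 5.24, 5.39, 5.16 and 5.24 in the unbound fractions, above its unbound level on each immunoprecipitate array.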
